A study of Mus musculus with 12 samples.

Results

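Chemokines are small secreted proteins that direct the movement of leukocytes, and the genes described here are the 58 chemokine and chemokine receptor genes among the 23472 gene entries of the deposited table. They were chosen by symbol: every Ccl, Cxcl, Ccr or Cxcr gene with a number, together with Cx3cl1, Cx3cr1, Xcl1 and Xcr1, which gave 38 ligands and 20 receptors. RNA was sequenced from 2 non-parenchymal cell fractions of the mouse liver, labelled sinusoidal endothelial cells (SEC) and hepatic stellate cells (HSC). All mice were male C57BL/6, 12 to 14 weeks old, with no genetic modification given in the labels, and began treatment at 6 to 8 weeks of age. Mice of the fibrosis groups F-SEC and F-HSC were injected intraperitoneally with CCl4, a hepatotoxin, at 0.6 µl per g body weight, diluted to 15% in olive oil, 2 times a week for 6 weeks, and mice of the control groups Q-SEC and Q-HSC were given olive oil. Each group had 3 libraries, numbered here after the group name (Q-SEC.1 to Q-SEC.3). By the study's methods, non-parenchymal cells of a collagenase digest were separated on a density gradient, the HSC were taken from the upper interface with no further selection stated, and the SEC were taken from the lower interface and then bound to magnetic beads against sinusoidal endothelium. The sources used here do not say whether both fractions came from the same livers.

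A chemokine binds a G protein-coupled receptor on a leukocyte or tissue cell, and the cell then moves towards the source or is retained there. Atypical receptors bind chemokines without G protein signalling and remove them. In the liver, endothelial cells, stellate cells and macrophages release chemokines on injury, monocytes enter through Ccl2 and Ccr2, neutrophils through the Cxcr2 ligands, and T and NKT cells patrol the sinusoids with Cxcr3 and Cxcr6.

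Gene counts per library ranged from 8714228 to 13068564, and chemokine and receptor genes took 0.0647 to 0.266% of them, so that 3 reads corresponded to 0.228 to 0.335 CPM (counts scaled to a common library size). The 12 endothelial markers summed to 28718 to 33162 CPM in Q-SEC and 10354 to 13538 CPM in Q-HSC, and all 12 were higher in the SEC fraction with and without CCl4. The 11 stellate cell markers did not set the HSC fraction apart: 1 was higher and 1 lower in Q-SEC than in Q-HSC, and their sum was 162 to 1592 CPM in Q-SEC, 448 to 2115 CPM in Q-HSC, 2408 to 4346 CPM in F-SEC and 1298 to 1859 CPM in F-HSC. The 14 Kupffer cell and macrophage markers summed to 472 to 1220 CPM in Q-SEC, 1857 to 3950 CPM in F-SEC, 8668 to 25121 CPM in Q-HSC and 5851 to 14223 CPM in F-HSC. Other lists also differed between oil and CCl4 libraries. Endothelial markers summed to 10068 to 13950 CPM in F-SEC and 2778 to 5342 CPM in F-HSC, the 8 hepatocyte markers to 1879 to 5135 CPM in Q-HSC and 9704 to 21861 CPM in F-HSC, and the 8 myofibroblast markers to 49.0 to 439 CPM in Q-SEC, 9572 to 25310 CPM in F-SEC, 132 to 702 CPM in Q-HSC and 4162 to 10592 CPM in F-HSC. Their part in the results was not tested. No marker in any list was at 0 in all libraries of a group. The labels SEC and HSC therefore name the fractions here, not pure cell types, and in bulk RNA fewer cells of a type and less RNA per cell cannot be told apart.

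Of the 58 genes, 39 (23 ligands and 16 receptors) had enough reads to be tested, and a few of them carried most of the reads. Cxcl12, the stromal ligand of Cxcr4, alone took 34.0% of all reads in these genes, and the 10 most abundant genes took 81.4%. Per unit length, the most abundant ligand in the SEC fraction was Cxcl10, an interferon-induced ligand of Cxcr3, at 131 ± 13.9 RPKM in Q-SEC and 199 ± 25.7 RPKM in F-SEC (SD, n = 3). Cxcl16, the transmembrane ligand of Cxcr6, followed in Q-SEC at 60.6 ± 13.3 RPKM, and Cxcl12 in F-SEC at 138 ± 27.2 RPKM. In the HSC fraction Ccl6, a mouse CC chemokine of macrophages, led at 167 ± 107 RPKM in Q-HSC and 177 ± 127 RPKM in F-HSC. Its SD exceeded its distance from Ccl5 in Q-HSC (80.0 ± 62.4 RPKM) and from Cxcl1 in F-HSC (80.6 ± 43.8 RPKM). Among receptors, Cxcr7, an atypical receptor that takes up Cxcl12, led in F-SEC at 34.2 ± 1.86 RPKM, above Cxcr4 at 12.0 ± 2.66 RPKM. In Q-SEC it was at 5.92 ± 1.25 RPKM and not separable from Cxcr2 at 5.91 ± 6.00 RPKM.

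**Figure D1:**
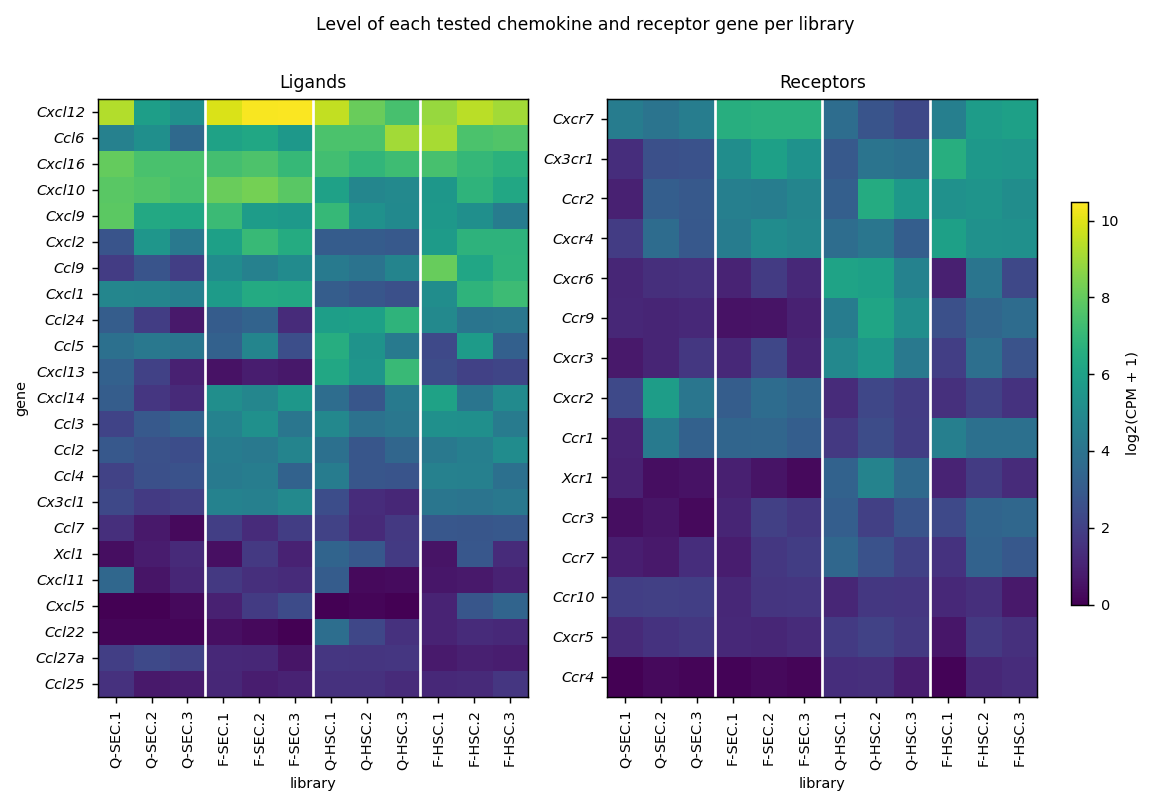
Level of 38 of the tested genes (rows, ligands left and receptors right, by mean level) in the 12 libraries (columns), as log2(CPM + 1), where brighter is higher. Cxcl12 reached 1375 CPM in F-SEC.3 and was lowest in 2 of the Q-SEC libraries, and Cxcr6, Ccr9, Cxcr3 and Xcr1 were brightest in the Q-HSC libraries.

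With CCl4, 16 of the 39 tested genes changed in the SEC fraction at an adjusted p under 0.05, beside 23.8% of all 14489 tested genes, and 14 rose while 2 fell. Of all genes, 11.8% rose and 12.1% fell. The median log2 change of the 39 genes was 0.76, beside -0.05 for all genes. In the HSC fraction 17 changed, beside 32.3% of all genes, and 10 rose while 7 fell (14.7% and 17.6% of all genes). Their median log2 change was -0.10, beside -0.02. In the SEC fraction 9 of 23 ligands and 5 of 16 receptors rose and 2 ligands fell, and in the HSC fraction 6 ligands and 4 receptors rose while 3 ligands and 4 receptors fell. The same 9 genes rose in both fractions, namely Cxcl1, Cxcl2, Cxcl5, Ccl2, Ccl9, Cx3cl1, Cx3cr1, Cxcr4 and Cxcr7, and 2 fell in both, Cxcl13 and Ccl27a, beside 5.27% of all genes that rose and 8.24% that fell in both. The groups did not overlap for 22 of the 39 genes in the SEC fraction, beside 43.7% of all genes, and for 19 in the HSC fraction, beside 46% of all genes. The SEC and HSC tests share no libraries, but they share 1 estimate of the spread. Same-numbered F-SEC and F-HSC libraries also deviated together (correlations of 0.47, 0.45 and 0.43), so these tests are not independent. Without Q-SEC.3 the number called in the SEC fraction was 10 of 42 tested, beside 11.6% of all genes.

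**Figure D2:**
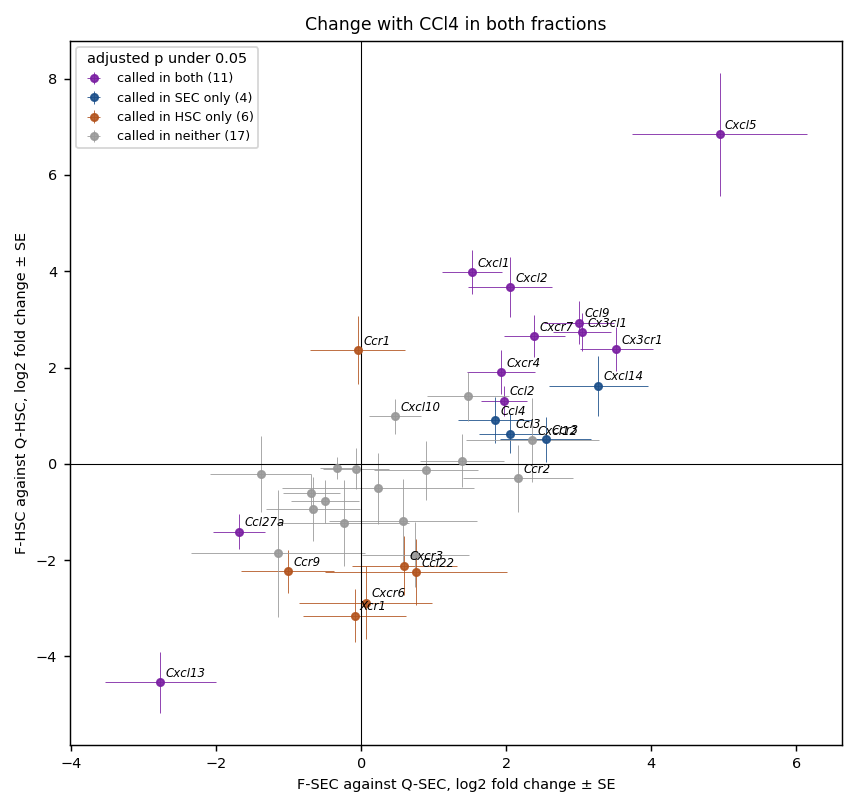
Log2 fold change with CCl4 in the SEC fraction (horizontal) and in the HSC fraction (vertical) for 38 of the tested genes, with standard errors as bars and colour by which test passed an adjusted p of 0.05. The 9 genes that rose in both lie at the upper right, Cxcl13 and Ccl27a at the lower left, and Xcr1, Cxcr6, Ccr9 and Cxcr3 below the horizontal axis, and the fitted value of Cxcl5 rests on controls with 0 to 2 reads.

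Cxcl1, Cxcl2 and Cxcl5, the neutrophil-attracting ligands of Cxcr2, rose in both fractions. Cxcl1 was at 27.1, 26.8 and 21.9 CPM in Q-SEC, 54.04, 85.5 and 78.99 in F-SEC, 7.53, 5.98 and 4.92 in Q-HSC and 34.5, 114 and 145 in F-HSC. Every CCl4 library was above every control library of its fraction. It rose by a log2 change of 3.98 ± 0.47 (SE, adjusted p = 0.00070) in the HSC fraction and 1.53 ± 0.41 (SE, adjusted p = 0.024) in the SEC fraction. The SEC call had an adjusted p of 0.068 without Q-SEC.2, 0.086 without Q-SEC.3, 0.056 without F-SEC.2 and 0.058 without F-SEC.3 (range over its 13 alternatives 0.00035 to 0.086).

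Cxcl2, the neighbouring gene with the same receptor, was at 5.63, 44.2 and 18.2 CPM in Q-SEC, 61.96, 132 and 87.9 in F-SEC, 7.43, 7.39 and 6.59 in Q-HSC and 53.3, 110.0 and 110.0 in F-HSC. Both CCl4 groups lay above their controls without overlap, and Q-SEC.2 stood above the other Q-SEC libraries. Its log2 change was 3.67 ± 0.63 (SE, adjusted p = 0.0026) in the HSC fraction and 2.05 ± 0.58 (SE, adjusted p = 0.028) in the SEC fraction. The SEC change was 2.97 without Q-SEC.2, and its adjusted p was 0.098 without Q-SEC.3, 0.073 without F-SEC.2 and 0.055 without F-SEC.3 (range over its 13 alternatives 0.0019 to 0.098). Of the 9 neutrophil markers none was called in the SEC fraction, and in the HSC fraction 1 rose and 0 fell. Their sum was 63.6 to 1188 CPM in Q-SEC, with the highest value in Q-SEC.2, 208 to 468 CPM in F-SEC, 72.3 to 203 CPM in Q-HSC and 142 to 301 CPM in F-HSC. Their part in these levels was not tested.

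Cxcl5, a further ligand of this receptor, was nearly absent from the control libraries. It had 0, 0 and 2 reads in Q-SEC, 11, 26 and 41 in F-SEC, 0, 1 and 0 in Q-HSC and 14, 66 and 86 in F-HSC. All CCl4 libraries were above all controls of their fraction, and both tests passed (adjusted p = 0.016 in the SEC fraction and 0.0038 in the HSC fraction). The SEC call was lost without Q-SEC.2 (adjusted p = 0.061, range over its 13 alternatives 0.0011 to 0.061). The fitted fold change is not given because the controls held 0 to 2 reads.

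Promoters of the ligands that rose are shown because 3 of the 7 genes with a RefSeq promoter among the 9 that rose in both fractions held the consensus of an NF-kB site, on either strand, within 250 bases before to 50 after the start. The motif was chosen after the expression values were seen. It occurs in this window for 4.35% of 27025 RefSeq genes, counting only the first listed promoter of each, and for 4.51% of all 32851 promoters. Of the 42 chemokine and receptor genes with a promoter, 9 held it (21.4%), but these were counted over any promoter of a gene. Ccl27a and Ccr6 held it only in a later promoter, so the 21.4% is not counted as the 4.35% is. A match is a description of letters and not a binding site. The stretches below run 5′ to 3′ from 130 bases before the start to the base before it (GRCm38.p6), Cxcl1 at chr5:90891115-90891244 (+), Cxcl2 at chr5:90903769-90903898 (+) and Ccl9 at chr11:83578637-83578766 (-). Capitals mark the motif, and hits on both strands that overlap are joined.
Cxcl1: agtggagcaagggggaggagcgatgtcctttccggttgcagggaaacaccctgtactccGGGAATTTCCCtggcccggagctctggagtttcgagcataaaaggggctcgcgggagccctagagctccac
Cxcl2: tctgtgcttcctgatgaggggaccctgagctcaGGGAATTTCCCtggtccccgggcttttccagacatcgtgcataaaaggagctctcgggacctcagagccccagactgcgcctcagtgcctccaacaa
Ccl9: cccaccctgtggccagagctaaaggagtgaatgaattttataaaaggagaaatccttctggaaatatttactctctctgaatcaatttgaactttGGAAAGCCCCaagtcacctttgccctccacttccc

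Cxcl1 and Cxcl2 held the same joined hit and Ccl9 a single one. The other 4 genes of the 9 with a promoter in the table did not hold the consensus in this window.

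Of the ligands that draw monocytes and macrophages, Ccl2 and Ccl9 rose in both fractions. Ccl9, a mouse ligand of Ccr1, was at 2.66, 5.54 and 2.91 CPM in Q-SEC, 33.9, 23.3 and 32.1 in F-SEC, 18.6, 14.9 and 25.5 in Q-HSC and 263, 73.8 and 113 in F-HSC. The CCl4 libraries did not overlap with the controls in either fraction, and F-HSC.1 was the highest. The log2 change was 3.0 ± 0.48 (SE, adjusted p = 0.0027) in the SEC fraction and 2.93 ± 0.45 (SE, adjusted p = 0.0018) in the HSC fraction, the latter 2.30 without F-HSC.1. Ccl2, the ligand of Ccr2, was at 6.48, 5.02 and 4.64 CPM in Q-SEC, 20.3, 17.8 and 25.4 in F-SEC, 13.5, 5.98 and 10.2 in Q-HSC and 18.2, 22.03 and 33.5 in F-HSC. It rose by a log2 change of 1.97 ± 0.32 (SE, adjusted p = 0.0027) in the SEC fraction and 1.31 ± 0.31 (SE, adjusted p = 0.010) in the HSC fraction, with no overlap in either. These calls for Ccl2 and Ccl9 held whichever library was left out. The summed level of 9 markers of monocytes and scar-associated macrophages was also highest in F-HSC.1, at 11391 CPM, while the other F-HSC libraries had 1790 and 2653 CPM, and its part in the levels of Ccl2 and Ccl9 was not tested.

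Fractalkine, Cx3cl1, a membrane-bound ligand that tethers cells bearing its receptor, was at 3.82, 2.404 and 3.02 CPM in Q-SEC, 24.4, 22.8 and 29.4 in F-SEC, 4.59, 1.52 and 1.23 in Q-HSC and 16.5, 15.6 and 17.7 in F-HSC. All 6 CCl4 libraries were above all 6 controls. On the log2 scale it rose by 3.04 ± 0.40 (SE, adjusted p = 0.0010) in the SEC fraction and 2.74 ± 0.40 (SE, adjusted p = 0.0014) in the HSC fraction, the latter 3.63 without Q-HSC.1. Its receptor Cx3cr1, a marker of monocytes and of macrophages derived from them, was at 1.59, 4.91 and 5.28 CPM in Q-SEC, 34.03, 61.6 and 40.01 in F-SEC, 6.65, 15.4 and 13.6 in Q-HSC and 94.6, 46.9 and 44.4 in F-HSC. Cx3cr1 rose by 3.52 ± 0.50 (SE, adjusted p = 0.0016) in the SEC fraction and by 2.38 ± 0.46 (SE, adjusted p = 0.0044) in the HSC fraction on the log2 scale, again without overlap. These 9 markers summed to 96.8 to 182 CPM in Q-SEC and 1263 to 1445 CPM in F-SEC, and to 496 to 1616 CPM in Q-HSC and 1790 to 11391 CPM in F-HSC. Of 8 tested, 4 rose in the SEC fraction, and 3 rose while 2 fell in the HSC fraction. Their part in the rise of Cx3cl1 and Cx3cr1 was not tested.

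Both receptors of Cxcl12 rose in both fractions. Cxcr7 was at 20.3, 15.3 and 20.8 CPM in Q-SEC, 94.8, 100.2 and 101 in F-SEC, 12.4, 5.54 and 3.798 in Q-HSC and 22.5, 54.7 and 60.8 in F-HSC. The F-SEC libraries lay within 94.8 to 101 CPM, and neither comparison overlapped. The rise on the log2 scale was 2.39 ± 0.42 (SE, adjusted p = 0.0040) in the SEC fraction and 2.65 ± 0.44 (SE, adjusted p = 0.0023) in the HSC fraction, the latter 3.34 without Q-HSC.1. Cxcr4, which also guides many leukocytes, was at 2.66, 12.2 and 6.47 CPM in Q-SEC, 20.3, 33.2 and 28.05 in F-SEC, 12.3, 16.6 and 7.82 in Q-HSC and 61.3, 38.8 and 37.9 in F-HSC. All CCl4 libraries were above the controls of their fraction, with log2 changes of 1.93 ± 0.47 (SE, adjusted p = 0.015) for SEC and 1.91 ± 0.45 (SE, adjusted p = 0.011) for HSC. For SEC the change was 2.57 without Q-SEC.2 and the adjusted p was 0.058 without Q-SEC.3 (range over its 13 alternatives 0.00031 to 0.058).

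**Figure D3:**
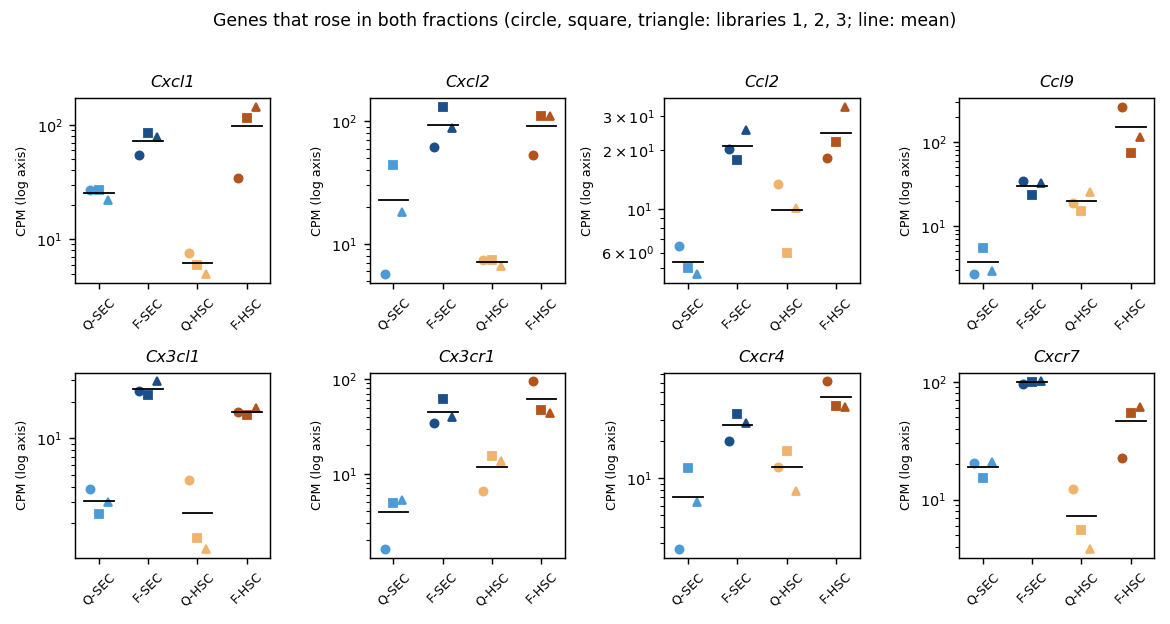
CPM on log axes in the 4 groups for 8 of the 9 genes that rose in both fractions (Cxcl5, with control libraries at 0 reads, is left out), with symbols for libraries 1, 2 and 3 and a line at the mean. In each panel the F libraries lie above the Q libraries of the same fraction, as for Cxcr7 at 94.8 to 101 CPM in F-SEC against 15.3 to 20.8 CPM in Q-SEC.

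Ccl3, Ccl4, Ccr3 and Cxcl14 passed the test in the SEC fraction and not in the HSC fraction. Ccl3 and Ccl4 are CC chemokines made by activated macrophages and lymphocytes. Ccl3 was at 3.29, 6.69 and 8.74 CPM in Q-SEC, 24.1, 37.5 and 16.4 in F-SEC, 28.6, 14.6 and 16.9 in Q-HSC and 37.1, 36.01 and 19.5 in F-HSC, with F-SEC above Q-SEC in every library and the HSC groups overlapping. Its log2 change was 2.06 ± 0.44 (SE, adjusted p = 0.0084) in the SEC fraction and 0.63 (adjusted p = 0.26) in the HSC fraction. Ccl4 was at 3.19, 4.91 and 5.28 CPM in Q-SEC, 18.4, 20.8 and 8.97 in F-SEC, 20.04, 6.08 and 5.59 in Q-HSC and 23.3, 22.7 and 13.7 in F-HSC, with no overlap between the SEC groups and with Q-HSC.1 inside the F-HSC range. Its log2 change was 1.85 ± 0.51 (SE, adjusted p = 0.026) in the SEC fraction and 0.91 (adjusted p = 0.17) in the HSC fraction, the latter 1.70 (adjusted p = 0.016) in libraries 2 and 3. The SEC call for Ccl4 was fragile, with an adjusted p of 0.069 without Q-SEC.1, 0.071 without Q-SEC.2, 0.066 without Q-SEC.3, 0.073 without F-SEC.1 and 0.065 without F-SEC.2 (range over its 13 alternatives 0.0018 to 0.073). Of the 14 Kupffer cell and macrophage markers, 8 rose and 1 fell in the SEC fraction and none rose and 4 fell in the HSC fraction, with summed levels as given above. Their part in the change of Ccl3 and Ccl4 was not tested.

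Cxcl14, a CXC chemokine present in many healthy epithelia and stromal tissues, was at 7.65, 2.195 and 1.402 CPM in Q-SEC, 35.2, 26.99 and 46.7 in F-SEC, 12.3, 5.98 and 18.3 in Q-HSC and 64.9, 16.1 and 31.3 in F-HSC. Q-SEC.1 was the highest of its group but below every F-SEC library, and in the HSC fraction F-HSC.2 fell below Q-HSC.3. For Cxcl14 the log2 change was 3.27 ± 0.69 (SE, adjusted p = 0.0081) in the SEC fraction, or 4.32 without Q-SEC.1, and 1.62 (adjusted p = 0.069) in the HSC fraction. DESeq2 called the HSC change of Cxcl14 (1.61, adjusted p = 0.031). Ccr3, the eotaxin receptor of eosinophils, had low levels, with 3, 5 and 2 reads in Q-SEC and 13, 31 and 22 in F-SEC. Its log2 change was 2.55 ± 0.63 (SE, adjusted p = 0.016) in the SEC fraction, with an adjusted p of 0.064 without Q-SEC.3 (range over its 13 alternatives 0.0015 to 0.083). In the HSC fraction it was 0.51 (adjusted p = 0.43), and 1.26 (adjusted p = 0.028) in libraries 2 and 3.

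Ccr2, the receptor by which inflammatory monocytes respond to Ccl2, did not pass the main test in the SEC fraction. It was at 0.956, 7.84 and 6.69 CPM in Q-SEC, 22.1, 20.99 and 26.3 in F-SEC, 8.01, 87.9 and 47.1 in Q-HSC and 38.8, 42.3 and 34.6 in F-HSC. All F-SEC libraries exceeded all Q-SEC libraries, and Q-SEC.1 and Q-HSC.1 were the lowest of their groups. Its log2 change was 2.16 (adjusted p = 0.061) in the SEC fraction and -0.30 (adjusted p = 0.76) in the HSC fraction. The SEC change was 2.44 (adjusted p = 0.030) in the fit with the library number as a block. It was also called by DESeq2 (adjusted p = 0.012), in libraries 2 and 3 (adjusted p = 0.0094) and in the 6 libraries compared (adjusted p = 0.044). The block fit also called Ccl7, a related monocyte attractant, in the SEC fraction (log2 change 1.52, adjusted p = 0.047) from counts of 2 to 16 reads in Q-SEC and 15 to 33 reads in F-SEC. DESeq2 (adjusted p = 0.029) and the fit of libraries 2 and 3 (adjusted p = 0.026) called Ccl7 there too.

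Ccr1, a receptor of monocytes and neutrophils for Ccl3 and Ccl9, passed the test in the HSC fraction and not in the SEC fraction. It was at 1.06, 19.02 and 8.63 CPM in Q-SEC, 9.83, 10.1 and 7.84 in F-SEC, 2.35, 4.45 and 2.79 in Q-HSC and 22.00, 13.8 and 13.6 in F-HSC. The HSC groups did not overlap, while Q-SEC.1 and Q-SEC.2 were the extremes of the whole SEC fraction. For Ccr1 the log2 change was 2.37 ± 0.70 (SE, adjusted p = 0.027) in the HSC fraction and -0.05 (adjusted p = 0.96) in the SEC fraction. For the HSC call the adjusted p was 0.074 without Q-HSC.1, 0.077 without Q-HSC.3, 0.058 without F-HSC.1 and 0.052 without F-HSC.3 (range over its 13 alternatives 0.0028 to 0.077).

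The fall in both fractions concerned Cxcl13, the attractant of B cells through Cxcr5. It was at 8.499, 3.14 and 0.971 CPM in Q-SEC, 0.435, 0.774 and 0.619 in F-SEC, 77.8, 43.7 and 138 in Q-HSC and 4.49, 3.11 and 3.51 in F-HSC. The control HSC libraries were all above 43 CPM and the F-HSC libraries below 5 CPM, while the SEC groups differed by less, with Q-SEC.3 near the F-SEC values. Cxcl13 fell by a log2 change of -4.53 ± 0.63 (SE, adjusted p = 0.0013) in the HSC fraction and -2.77 ± 0.76 (SE, adjusted p = 0.025) in the SEC fraction. The SEC change was -1.75 without Q-SEC.1, and its adjusted p was 0.093 without Q-SEC.1, 0.092 without F-SEC.1 and 0.077 without F-SEC.3 (range over its 13 alternatives 0.00072 to 0.29). Its receptor Cxcr5 was below 4 CPM everywhere and was not called in any test. The 5 tested markers of B and plasma cells were not called in either fraction.

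Ccl27a, an epithelial ligand of Ccr10, fell from 27 to 38 reads in Q-SEC to 5 to 15 reads in F-SEC and from 19 to 22 reads in Q-HSC to 7 to 10 reads in F-HSC. The log2 change was -1.69 ± 0.36 (SE, adjusted p = 0.0079) in the SEC fraction and -1.41 ± 0.37 (SE, adjusted p = 0.015) in the HSC fraction, the HSC call with an adjusted p of 0.052 without F-HSC.1 and 0.054 without F-HSC.3 (range over its 13 alternatives 0.0077 to 0.067). It overlaps Il11ra1 on the opposite strand, which had 132 to 567 reads, so its reads are uncertain where strand was not used in counting. Ccl27b, whose listed promoters are nearly the same in sequence, had 0 reads in every library. How reads were assigned between Ccl27a and Ccl27b is not given.

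In the HSC fraction 4 receptors found on T cells or dendritic cells fell, Cxcr6, Cxcr3, Xcr1 and Ccr9. Cxcr6, the receptor of Cxcl16 on liver T and NKT cells, was at 1.17, 1.67 and 1.83 CPM in Q-SEC, 1.04, 2.52 and 1.34 in F-SEC, 66.95, 61.1 and 24.4 in Q-HSC and 0.914, 15.9 and 3.84 in F-HSC. Every F-HSC library was below every Q-HSC library, with F-HSC.2 the highest of its group. For Cxcr6 the log2 change was -2.89 ± 0.76 (SE, adjusted p = 0.017) in the HSC fraction and 0.06 (adjusted p = 0.97) in the SEC fraction. The HSC change was -2.29 without F-HSC.1 and -4.43 without F-HSC.2, and its adjusted p was 0.067 without F-HSC.3 (range over its 13 alternatives 0.00094 to 0.070). Cxcr6 overlaps Fyco1 on the other strand, with 675 to 1530 reads.

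Cxcr3, the receptor of Cxcl9, Cxcl10 and Cxcl11 on activated T and NK cells, was at 0.637, 1.15 and 2.26 CPM in Q-SEC, 1.31, 3.68 and 1.13 in F-SEC, 28.8, 45.96 and 18.2 in Q-HSC and 2.89, 13.1 and 5.49 in F-HSC. The HSC groups did not overlap, and F-HSC.2 was again the highest of its group. For Cxcr3 the log2 change was -2.12 ± 0.61 (SE, adjusted p = 0.023) in the HSC fraction and 0.59 (adjusted p = 0.58) in the SEC fraction. The HSC change was -2.87 without F-HSC.2, with an adjusted p of 0.094 without Q-HSC.2, 0.062 without F-HSC.1 and 0.086 without F-HSC.3 (range over its 13 alternatives 0.0044 to 0.094). The 13 T and NK cell markers summed to 201 to 863 CPM in Q-HSC and 15.1 to 230.2 CPM in F-HSC, and to 61.1 to 114 CPM in Q-SEC and 30.9 to 95.8 CPM in F-SEC. In the HSC fraction 3 of 13 fell and none rose, and their part in the fall of Cxcr3 and Cxcr6 was not tested.

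Xcr1, which marks cross-presenting dendritic cells, was at 0.956, 0.314 and 0.431 CPM in Q-SEC, 0.8702, 0.484 and 0.206 in F-SEC, 8.797, 25.1 and 11.2 in Q-HSC and 1.07, 2.56 and 1.43 in F-HSC, and the HSC groups did not overlap. It fell by a log2 change of -3.15 ± 0.55 (SE, adjusted p = 0.0027), and the value was -2.51 without Q-HSC.2. Ccr9, the receptor of Ccl25 on gut-homing lymphocytes and plasmacytoid dendritic cells, was at 1.27, 1.15 and 1.29 CPM in Q-SEC, 0.435, 0.484 and 0.928 in F-SEC, 20.1, 71.4 and 34.97 in Q-HSC and 4.95, 10.1 and 12.1 in F-HSC. It changed by -2.23 ± 0.45 (SE, adjusted p = 0.0052) in the HSC fraction without overlap, and by -1.56 without Q-HSC.2. Ccl22, a dendritic cell ligand of Ccr4, had 131, 34 and 16 reads in Q-HSC and 14, 16 and 12 in F-HSC, with Q-HSC.1 far above the others, and its log2 change was -2.25 ± 0.68 (SE, adjusted p = 0.028). That value was -1.05 without Q-HSC.1, and its adjusted p was 0.19 without Q-HSC.1, 0.075 without F-HSC.1, 0.065 without F-HSC.2 and 0.083 without F-HSC.3 (range over its 13 alternatives 0.013 to 0.21). The 10 dendritic cell markers summed to 958 to 1417 CPM in Q-HSC and 433 to 725 CPM in F-HSC, and 7 of 10 fell. Their part was not tested.

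Whether a gene responded differently in the fractions was tested directly, and with edgeR the difference of the CCl4 changes passed for 0 of the 39 genes, beside 0.801% of all genes (0.566% with the more positive change in SEC and 0.235% in the other direction). With 1 library left out that share ranged from 0.0203% without Q-SEC.3 to 5.04% without F-HSC.1. At an unadjusted p under 0.05 there were 10, beside 17.7% of all genes, and they were 7 of the 16 receptors and 3 of the 23 ligands. The median difference (SEC minus HSC) was 0.74 on the log2 scale, beside 0.02 for all genes. DESeq2 called 3 of the 39, beside 6.29% of all genes, limma-voom 0, beside 0.186%, and the block fit 0, beside 1.26%. The fit of libraries 2 and 3 alone called 9 of 40 tested, beside 11.7% of all genes. The lists of genes called in 1 fraction and not the other are therefore not shown to differ in response. For Cxcl1 the difference was -2.46 ± 0.60 (SE, adjusted p = 0.079), with 0.0039 by DESeq2 and 0.0024 in libraries 2 and 3. DESeq2 also called Xcr1 (3.10, adjusted p = 0.024).

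Cxcl12, which had the most reads of these genes, turned on 1 control library in the SEC fraction. It was at 622, 57.5 and 37.6 CPM in Q-SEC, 957, 1349.6 and 1375 in F-SEC, 738, 275 and 176 in Q-HSC and 472, 677 and 524 in F-HSC. All F-SEC libraries were above all Q-SEC libraries, and Q-SEC.1 was 13.1-fold above the mean of Q-SEC.2 and Q-SEC.3, while Q-HSC.1 was 3.28-fold above the mean of the other 2. The log2 change was 2.36 ± 0.92 (SE, adjusted p = 0.083) in the SEC fraction and 0.49 ± 0.87 (SE, adjusted p = 0.69) in the HSC fraction. Without Q-SEC.1 the SEC change was 4.69 (adjusted p = 0.0013). With the block it was 3.25 (adjusted p = 0.029) and with limma-voom 3.46 (adjusted p = 0.027), in a range of adjusted p over its 12 alternatives from 8.8e-05 to 0.20. In libraries 2 and 3 the HSC change was 1.47 (adjusted p = 0.0065), beside adjusted p-values of up to 0.91 over its alternatives. The difference between the fractions' changes was 1.87 (adjusted p = 0.46), and 4.20 (adjusted p = 0.023) without Q-SEC.1. The 11 stellate cell markers stood apart in the same libraries, with a summed level 8.30-fold above the mean of libraries 2 and 3 in Q-SEC.1 and 4.31-fold in Q-HSC.1. Among these markers 5 rose in the SEC fraction and 2 in the HSC fraction. Their part in the levels of Cxcl12 was not tested.

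The interferon-induced ligands of Cxcr3 also differed between library numbers. Cxcl9 was at 234, 80.1 and 75.6 CPM in Q-SEC, 142, 54.4 and 48.7 in F-SEC, 131, 38.8 and 30.4 in Q-HSC and 47.7, 36.01 and 20.5 in F-HSC. Library 1 was the highest in all 4 groups, from 1.69-fold in F-HSC to 3.79-fold in Q-HSC above the mean of the other 2. Its log2 change was -0.67 (adjusted p = 0.48) in the SEC fraction and -0.94 (adjusted p = 0.30) in the HSC fraction. Cxcl11 had 98 reads in Q-SEC.1 and 74 in Q-HSC.1, against 2 to 27 in the other 10 libraries, and was not called in any of the 5 tests. Cxcl10, the third of them, was at 225, 197 and 175 CPM in Q-SEC, 275, 319.8 and 227 in F-SEC, 62.7, 26.8 and 30.1 in Q-HSC and 45.99, 114 and 78.1 in F-HSC. Library 1 was 2.20-fold above the mean of the other 2 in Q-HSC and 1.21-fold in Q-SEC, and below it at 0.479-fold in F-HSC. The SEC groups did not overlap but differed by 0.46 (adjusted p = 0.37) on the log2 scale, and the HSC groups overlapped, with a change of 0.99 (adjusted p = 0.057). That HSC change was 1.82 (adjusted p = 0.0016) in libraries 2 and 3, and it was also called by DESeq2 (adjusted p = 0.023) and limma-voom (adjusted p = 0.048). Reads of Cxcl10 and Cxcl11 could be shared with Art3 on the opposite strand, which had 88 to 609 reads.

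**Figure D4:**
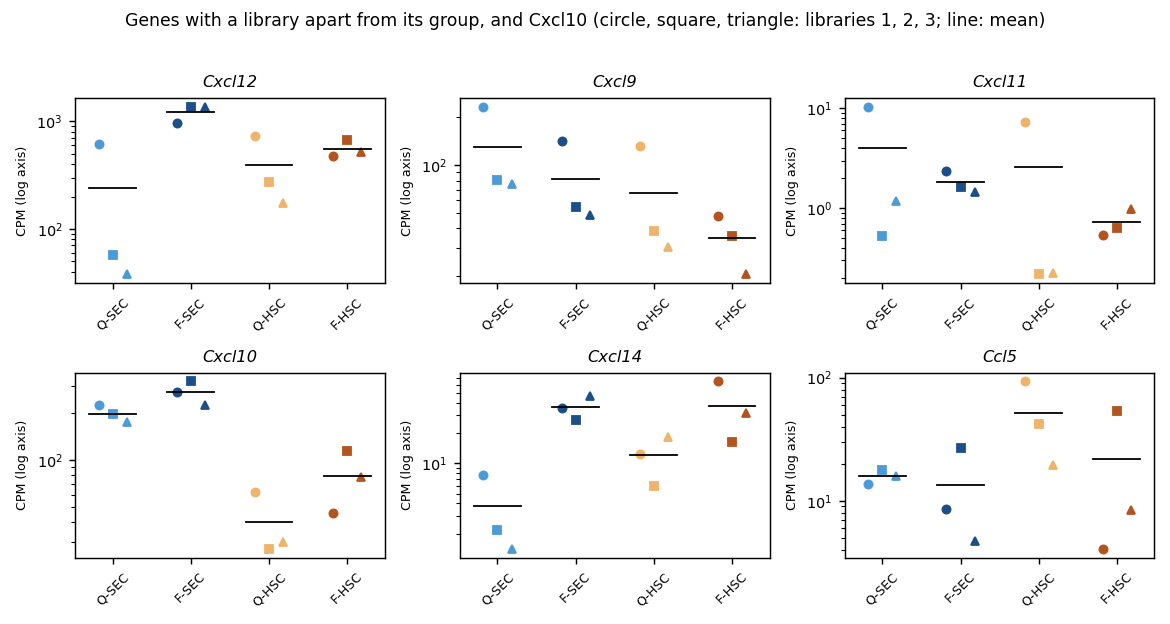
CPM on log axes for Cxcl12, Cxcl9, Cxcl11, Cxcl10, Cxcl14 and Ccl5 in the 4 groups, with circles, squares and triangles for libraries 1, 2 and 3 and a line at the mean. The circle of library 1 lies far above the other symbols for Cxcl12 and Cxcl11 in Q-SEC and Q-HSC, and above them in all 4 groups for Cxcl9.

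Cxcl16 and Ccl5 were abundant and not called in any of the 5 tests. Cxcl16 had group means of 204 ± 45.5 CPM in Q-SEC, 162 ± 30.7 CPM in F-SEC, 142 ± 20.6 CPM in Q-HSC and 134 ± 35.1 CPM in F-HSC (SD, n = 3), and its log2 change was -0.33 (adjusted p = 0.31) in the SEC fraction and -0.08 (adjusted p = 0.81) in the HSC fraction. It overlaps Zmynd15 on the other strand, with 281 to 1500 reads. Ccl5, a product of T and NK cells, varied within groups, with means of 15.7 ± 1.98 CPM in Q-SEC, 13.3 ± 11.7 CPM in F-SEC, 51.4 ± 37.9 CPM in Q-HSC and 21.9 ± 27.3 CPM in F-HSC. Its change was -0.24 (adjusted p = 0.87) in the SEC fraction and -1.23 (adjusted p = 0.31) in the HSC fraction.

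In control liver 21 of the 39 genes differed between the fractions, beside 29.8% of all genes. Of these, 17 were higher in Q-HSC and 4 in Q-SEC, beside 14.3% and 15.5% of all genes, with a median log2 difference (SEC minus HSC) of -1.45, beside 0.01. Of 16 receptors, 10 were higher in Q-HSC and 2 in Q-SEC. Of 14 Kupffer cell markers 13 were higher in Q-HSC and none in Q-SEC, of 13 T and NK cell markers 8 and of 10 dendritic cell markers 7, with 1 dendritic cell marker higher in Q-SEC. The part of these cells was not tested. In CCl4 liver 8 genes were called, 7 higher in F-HSC and 1 in F-SEC, beside 25.3% of all genes (12.8% and 12.6%). All 8 were also called in control liver and in the same direction. The median difference was -0.72, beside 0.01. The libraries of the fractions did not overlap for 27 of the 39 genes in control liver, beside 47.4% of all genes, and for 21 in CCl4 liver, beside 40.8% of all genes.

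The 4 receptors that fell with CCl4 in the HSC fraction were also higher in Q-HSC than in Q-SEC. For Ccr9 the log2 difference was -5.07 ± 0.54 (SE, adjusted p = 0.00026) in control liver, or -4.47 without Q-HSC.2, and -3.86 ± 0.56 (SE, adjusted p = 0.0015) in CCl4 liver. For Cxcr6 it was -5.02 ± 0.88 (SE, adjusted p = 0.0019) and -2.07 (adjusted p = 0.092), for Xcr1 -4.70 ± 0.62 (SE, adjusted p = 0.00051), or -5.29 without Q-SEC.1, and -1.64 (adjusted p = 0.080). For Cxcr3 it was -4.51 ± 0.71 (SE, adjusted p = 0.0012) and -1.80 (adjusted p = 0.066), and -1.74 (adjusted p = 0.029) in CCl4 liver with the block. For each of these 4 genes every Q-SEC library was below the lowest Q-HSC library. Ccr2 differed by -3.20 ± 0.78 (SE, adjusted p = 0.010) in control liver, or -2.42 without Q-HSC.2, with an adjusted p of 0.063 by limma-voom and 0.052 in the 6 libraries compared (range over its 13 alternatives 6.0e-05 to 0.063), and -0.74 (adjusted p = 0.47) in CCl4 liver. Cx3cr1 was lower in Q-SEC by a difference of -1.59 ± 0.49 (SE, adjusted p = 0.031), with an adjusted p of 0.082 without Q-SEC.1, 0.053 without Q-SEC.2, 0.094 without Q-HSC.2 and 0.077 without Q-HSC.3 (range over its 13 alternatives 0.0022 to 0.094), and differed by -0.46 (adjusted p = 0.48) in CCl4 liver.

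Of the ligands higher in the HSC fraction, Ccl6 was at 23.7, 36.7 and 11.00 CPM in Q-SEC, 64.5, 75.3 and 47.3 in F-SEC, 185, 182 and 527 in Q-HSC and 554, 185 and 198 in F-HSC. No SEC library reached the lowest HSC library of its treatment. The log2 difference was -3.64 ± 0.62 (SE, adjusted p = 0.0017) in control liver, or -2.97 without Q-HSC.3, and -2.32 ± 0.58 (SE, adjusted p = 0.015) in CCl4 liver. The latter was -1.62 without F-HSC.1, and its adjusted p was 0.060 without F-SEC.3 (range over its 13 alternatives 0.00027 to 0.083). CCl4 changed it by 1.39 (adjusted p = 0.10) in the SEC fraction and 0.07 (adjusted p = 0.94) in the HSC fraction.

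Ccl24, the eotaxin that acts on Ccr3, was at 7.44, 2.72 and 0.647 CPM in Q-SEC, 7.31, 9.29 and 1.44 in F-SEC, 58.4, 61.8 and 112 in Q-HSC and 29.8, 15.7 and 17.02 in F-HSC. Control HSC libraries were all above 58 CPM and control SEC libraries below 8 CPM, a difference of -4.42 ± 0.77 (SE, adjusted p = 0.0019), or -5.50 without Q-SEC.1. In CCl4 liver the difference was -1.79 (adjusted p = 0.084), and it was called by DESeq2 (adjusted p = 0.041) and limma-voom (adjusted p = 0.044). The change of Ccl24 with CCl4 in the HSC fraction was -1.89 (adjusted p = 0.051), without overlap. That change was called by DESeq2 (adjusted p = 0.023), limma-voom (adjusted p = 0.011), in libraries 2 and 3 (adjusted p = 0.026) and in the 6 libraries compared (adjusted p = 0.022). Cxcl13 differed by -4.36 ± 0.63 (SE, adjusted p = 0.00078) in control liver, or -5.38 without Q-SEC.1, and by -2.60 (adjusted p = 0.030) in CCl4 liver, the latter with an adjusted p of 0.095 without F-SEC.1, 0.067 without F-SEC.2, 0.080 without F-SEC.3, 0.071 without F-HSC.1 and 0.059 without F-HSC.3 (range over its 13 alternatives 0.0012 to 0.13). Ccl9 differed by -2.40 ± 0.48 (SE, adjusted p = 0.0038) and -2.33 ± 0.44 (SE, adjusted p = 0.0041), the latter -1.64 without F-HSC.1. Ccl3 differed by -1.68 ± 0.43 (SE, adjusted p = 0.014) in control liver, with an adjusted p of 0.12 in libraries 2 and 3 (range over its 13 alternatives 0.00069 to 0.12), and by -0.25 (adjusted p = 0.69) in CCl4 liver.

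Higher in the SEC fraction were Cxcl10, Cxcl1, Cxcr2 and Cxcr7. Cxcl10 differed by 2.32 ± 0.38 (SE, adjusted p = 0.0013) in control and 1.79 ± 0.37 (SE, adjusted p = 0.0058) in CCl4 liver, every SEC library above every HSC library, and was the 1 gene called higher in F-SEC. Its promoter is shown from 230 bases before the start to the base before it (chr5:92348890-92349119, minus strand, GRCm38.p6), with the first capitals marking the consensus of an interferon-stimulated response element and the other 2 the NF-kB consensus. The interferon consensus, searched on both strands and also chosen after the values were seen, occurs in the first listed promoter of 0.514% of RefSeq genes. Of the 42 chemokine and receptor genes 1, Cxcl10, held it in any promoter.
Cxcl10: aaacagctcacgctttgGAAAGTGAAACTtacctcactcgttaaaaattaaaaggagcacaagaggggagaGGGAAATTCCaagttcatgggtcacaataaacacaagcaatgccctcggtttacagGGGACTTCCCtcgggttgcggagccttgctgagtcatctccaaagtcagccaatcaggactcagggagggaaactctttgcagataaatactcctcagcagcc

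Cxcl1 differed by 2.03 ± 0.44 (SE, adjusted p = 0.0058) in control liver, with 21.9 to 27.1 CPM in Q-SEC and 4.92 to 7.53 CPM in Q-HSC, and by -0.42 (adjusted p = 0.48) in CCl4 liver, where the fractions overlapped. Cxcr7 differed by 1.36 ± 0.43 (SE, adjusted p = 0.035) in control liver and 1.10 (adjusted p = 0.068) in CCl4 liver. In control liver this was 1.99 without Q-HSC.1, with an adjusted p of 0.074 without Q-SEC.1, 0.088 without Q-SEC.3, 0.13 without Q-HSC.2 and 0.12 without Q-HSC.3 (range over its 13 alternatives 0.00078 to 0.13). Cxcr2, the receptor of Cxcl1, Cxcl2 and Cxcl5 on neutrophils, was at 4.04, 55.7 and 16.5 CPM in Q-SEC, 7.57, 12.00 and 9.59 in F-SEC, 1.47, 3.69 and 2.68 in Q-HSC and 1.75, 3.11 and 1.87 in F-HSC. Q-SEC.2 was the highest. The difference was 3.28 ± 0.77 (SE, adjusted p = 0.0086) in control liver, or 1.98 without Q-SEC.2, with an adjusted p of 0.086 by limma-voom (range over its 13 alternatives 4.4e-05 to 0.086), and 2.11 (adjusted p = 0.062) in CCl4 liver, where the block gave 2.17 (adjusted p = 0.018). Of the 9 neutrophil markers, 6 were higher in Q-SEC and 3 in F-SEC, and none lower. Their part was not tested. With CCl4, Cxcr2 changed by -1.39 (adjusted p = 0.17) in the SEC fraction and -0.21 (adjusted p = 0.86) in the HSC fraction.

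**Figure D5:**
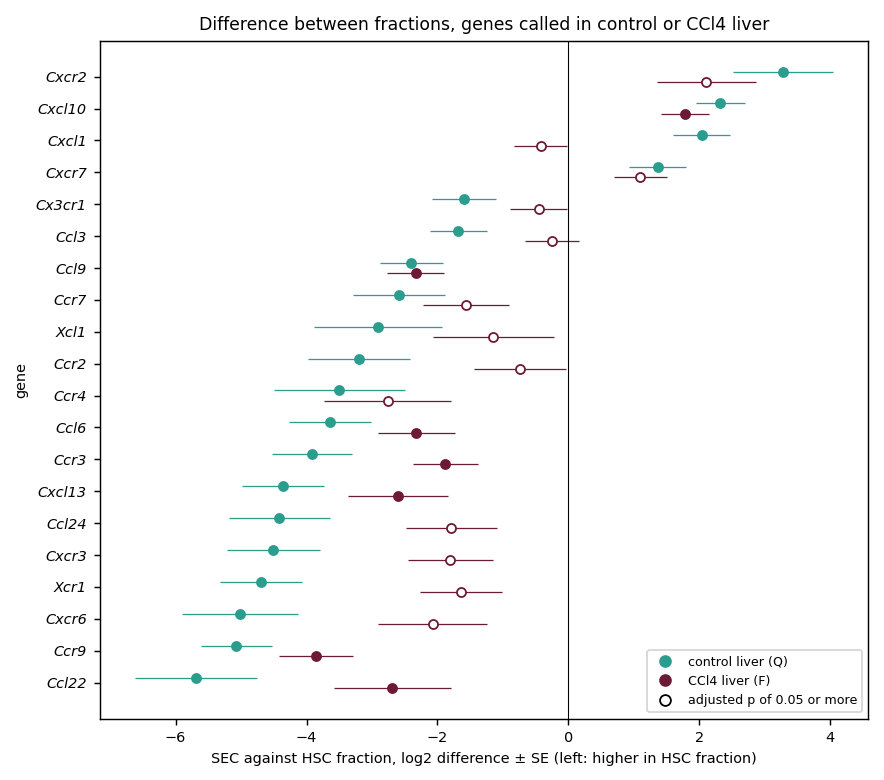
Log2 difference between the SEC and HSC fractions with its standard error for 20 of the genes called in control liver, 7 of which were also called in CCl4 liver, in control (green) and CCl4 (dark red) liver, with open symbols where the adjusted p was 0.05 or more. Of the 20 control values 16 lie left of 0 (higher in HSC) and 4 right of it, Cxcr2, Cxcl10, Cxcl1 and Cxcr7, and the fitted values of Ccl22 and Ccr4 rest on 0 to 4 reads in the SEC libraries.

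The genes below 10 CPM in every group mean were 12 of the 39 tested, Ccr3, Ccr7, Xcl1, Ccl7, Ccl22, Cxcl5, Cxcl11, Ccl27a, Ccr10, Cxcr5, Ccl25 and Ccr4. In control liver 5 of them were higher in the HSC fraction. Ccr3 differed by -3.91 (adjusted p = 0.0011) and in CCl4 liver by -1.88 (adjusted p = 0.019), the latter with an adjusted p of 0.063 without F-SEC.1, 0.054 without F-SEC.3, 0.051 without F-HSC.2 and 0.065 without F-HSC.3 (range over its 13 alternatives 0.0030 to 0.065). Ccl22 had 1 read in each Q-SEC library and 0 to 4 reads in F-SEC, so no fold is given, and both differences passed (adjusted p = 0.0014 in control and 0.047 in CCl4 liver). In CCl4 liver leaving out any of the 6 libraries lost the call, with an adjusted p of 0.059 without F-SEC.1, 0.11 without F-SEC.2, 0.13 without F-SEC.3, 0.069 without F-HSC.1, 0.099 without F-HSC.2 and 0.091 without F-HSC.3 (range over its 13 alternatives 0.017 to 0.13). The homing receptor Ccr7, Ccr4 on regulatory and helper T cells, and Xcl1, the T and NK cell ligand of Xcr1, were higher in Q-HSC. The difference was -2.59 (adjusted p = 0.017) for Ccr7 and -2.91 (adjusted p = 0.044) for Xcl1, and Ccr4 had 0 to 2 reads in Q-SEC and 7 to 16 reads in Q-HSC (adjusted p = 0.022). Their calls were not firm. For Ccr7 the adjusted p was 0.053 without Q-SEC.1, 0.065 without Q-SEC.2 and 0.056 without Q-HSC.1 (range over its 13 alternatives 0.0011 to 0.065), for Ccr4 0.065 without Q-SEC.1, 0.067 without Q-SEC.3 and 0.061 without Q-HSC.2 (range over its 12 alternatives 0.011 to 0.067) and for Xcl1 0.12 without Q-SEC.1, 0.11 without Q-SEC.2, 0.065 without Q-SEC.3, 0.11 without Q-HSC.1 and 0.088 without Q-HSC.2 (range over its 13 alternatives 0.0081 to 0.12). The difference of Xcl1 was -3.52 without Q-SEC.3. In the main test Ccl7 and Cxcl9 were not called in CCl4 liver. The block called both, Ccl7 at -1.44 (adjusted p = 0.033) and Cxcl9 at 1.10 (adjusted p = 0.0083). Ccl7 was also called there by DESeq2 (adjusted p = 0.023), limma-voom (adjusted p = 0.026), in libraries 2 and 3 (adjusted p = 0.033) and in the 6 libraries compared (adjusted p = 0.024). Cxcl9 was also called in libraries 2 and 3 (adjusted p = 0.047). With CCl4, Ccl7 changed by 1.40 (adjusted p = 0.054) in the HSC fraction without overlap. That change was called by DESeq2 (adjusted p = 0.017), limma-voom (adjusted p = 0.023), in libraries 2 and 3 (adjusted p = 0.017) and in the 6 libraries compared (adjusted p = 0.028).

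Of the 19 genes not tested, Ccl26 had 0 reads in all 12 libraries, which allows up to 0.228 to 0.335 CPM per library. Ccl19 was also at 0 in all 12. It lies between Ccl27b and Ccl21a on chromosome 4, and how reads were assigned there is not given, so no limit is stated for it. Ccl21a, Ccl21b, Ccl21c and Ccl27b are also listed at 0 throughout, but they belong to near-identical copies among which reads cannot be assigned, so no limit on their level is given. The other 13 had at most 30 reads in a library, with the highest count in Ccr1l1 (30), Ccl8 (22), Ccl17 (17), Ccl12 (15), Ccl28 (15), Ccr8 (15), Cxcr1 (12), Ccr6 (11), Cxcl3 (11), Ccl1 (4), Ccl11 (3), Cxcl17 (2) and Ccl20 (1).

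Other genes of the pathway, from lists chosen with earlier results of these data known, moved as follows. Of all genes, 11.8% rose and 12.1% fell in the SEC fraction, and 14.7% rose and 17.6% fell in the HSC fraction. Of 8 atypical receptors and platelet chemokines in the table, 1 rose and 2 fell in the SEC fraction, and 2 rose and 4 fell in the HSC fraction. Pf4, the platelet factor also made by some macrophages, rose by 2.96 ± 0.66 (SE, adjusted p = 0.010) in the SEC fraction, and Gpr182, an endothelial receptor reported to bind chemokines, changed by -1.07 (adjusted p = 0.039) there and by -1.54 (adjusted p = 0.0071) in the HSC fraction. Ccbp2, the scavenger of inflammatory CC chemokines, was higher in the SEC fraction by a difference of 1.62 (adjusted p = 0.00041) in control liver. Of 9 tested genes for cleavage and presentation, 1 rose and 1 fell in the SEC fraction and 3 rose and 1 fell in the HSC fraction. Dpp4, a peptidase that trims chemokine ends, fell in both, by a change of -1.56 (adjusted p = 0.0036) and -1.53 (adjusted p = 0.0029).

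Of 22 receptor signalling genes, 5 rose in the SEC fraction and 0 fell, led by Rgs1, a brake on G protein signalling, at 3.13 (adjusted p = 0.0011). In the HSC fraction 1 rose and 3 fell, including Arrb2, a beta-arrestin, at -1.15 (adjusted p = 0.0027). In control liver 16 of the 22 were higher in the HSC fraction and 2 in the SEC fraction, beside 14.3% and 15.5% of all genes. The difference of the CCl4 changes passed for 1, the receptor kinase Grk6, at 1.16 (adjusted p = 0.040), beside 0.801% of all genes. Of 15 inducers and feedback genes of NF-kB, 1 rose and 1 fell in the SEC fraction, beside 11.8% and 12.1% of all genes. In the HSC fraction 4 of them rose and 2 fell, beside 14.7% and 17.6% of all genes. Tnfaip3, a feedback inhibitor of NF-kB, rose in both, by 1.92 (adjusted p = 0.016) and 1.90 (adjusted p = 0.013), and Tnf rose in the HSC fraction by 1.39 (adjusted p = 0.027). Of 12 interferon pathway genes none was called in the SEC fraction by edgeR, and in the HSC fraction 5 fell and 0 rose, among them Stat2, a transducer of type I interferon signals, at -1.36 (adjusted p = 0.0023).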

How the data were processed

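The authors isolated SEC and HSC fractions, extracted total RNA at once, prepared Illumina libraries, generated reads using bcl2fastq and mapped them on mm10 by TopHat2 2.0.13, per the labels. The deposited count values are the authors' reads per annotated entry, and neither the counting tool nor its use of strand is given in the sources used here. The deposited RPKM values are the authors' counts per length and library total, and were used only to order levels between genes. Of 56826 lines, 1 held no values, and 33353 cDNA clone entries (16.3 to 24.9% of counts) were set aside, because they overlap genes, leaving 23472 genes.

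The count test was edgeR 4.0.16 in R 4.3.3 (limma 3.58.1). It ran on the 14489 genes kept by filterByExpr (minimum count of 10), with TMM factors between 0.899 and 1.09 and a robust quasi-likelihood fit of 4 group means to all 12 libraries, which left 8 residual degrees of freedom and a common biological coefficient of variation of 0.280. CCl4 was compared with oil within each fraction, these changes were compared with each other, and the fractions were compared within control and within CCl4 liver, which made 5 tests. Benjamini-Hochberg adjustment covered every tested gene in a test, and a gene was called when its adjusted p was under 0.05. The last 2 tests share libraries with the first 2. The labels do not say that the libraries came from separate mice, so the error behind each p is the variation from library to library, part of which may be technical. Standard errors come from the same fit and SDs from the spread across libraries, so both include this variation. Limits of detection cover counting error only, with 3 reads as the limit. No 2 libraries of a group agreed within sampling noise (chi-square per degree of freedom 21.0 to 198).

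The chemokine genes and all gene lists were chosen with earlier results of these data known. Values in every library are given for genes called in at least 1 test with a group mean of at least 10 CPM (23 genes), except 1 that is not reported here, though it is part of the counts. The 4 other genes at that level are given by group means and tests (Cxcl12 and Cxcl9 in every library, after their values were seen), the 12 below it in short, and the 19 untested by highest count. Of the other lists at most 4 called genes each are named. A value given for a left-out library stands where the call was lost or the fold change moved by over 1.5 times. RefSeq promoters (GRCm38.p6) were matched by symbol for 42 of the 58 genes, Cxcr7 under its symbol Ackr3. Simulated counts were tested first.

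Titles number the libraries 2 and 3 of each group, and the library whose title has no number is called 1 here. Same-numbered libraries deviated together, with correlations of deviations from group means of 0.31, 0.25 and 0.16 between Q-SEC and F-SEC and of 0.47, 0.45 and 0.43 between F-SEC and F-HSC, so for those tests a block fit on the library number is reported beside any call that it altered. Alternatives were RLE scaling, no filter beyond 1 read, DESeq2 1.42.0, limma-voom, the block, libraries 2 and 3 alone, the 6 libraries compared alone, and each library left out.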

Additional observations from a re-analysis of the deposited data

How the results depend on the processing

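Of 62 calls of a gene in a test, 36 held under every alternative run and 26 were lost under at least 1, and none changed direction. RLE scaling and DESeq2 kept 62 of 62, no filter 60, the replicate block 61, libraries 2 and 3 alone 53, limma-voom 52 and the 6 libraries compared 54 of 61. Leaving out each library kept 298 of 372, and 39 of the 62 calls held whichever library was left out. The number of genes called moved by over 1.5 times for the difference of the CCl4 changes, from 0 to 3 with DESeq2 (6.29% of all genes) and 9 in libraries 2 and 3 (11.7%). For F-SEC against F-HSC it moved from 8 to 16 with DESeq2 (30.8% of all genes), 14 in libraries 2 and 3 (28.6%) and 14 in the 6 libraries compared (22.8%). With 1 library left out it was 10 to 17 for F-SEC against Q-SEC (16 with all), 13 to 20 for F-HSC against Q-HSC (17), 0 to 2 for the difference, 19 to 22 for Q-SEC against Q-HSC (21) and 3 to 10 for F-SEC against F-HSC (8). The cause was not tested. With the block the 5 tests called 19, 21, 0, 24 and 12, beside 29.9%, 37.9%, 1.26%, 35% and 29.2% of all genes. Same numbers did not correlate throughout between Q-HSC and F-HSC (-0.09, 0.24 and -0.28) or between Q-SEC and Q-HSC (0.53, 0.50 and -0.01), so there the block is given only here: it added Ccl24, Ccl7, Cxcl14 and Cxcl9 in the former and Ccl7, Cxcl14, Cxcl2 and Cxcl9 in the latter, and took Cxcr7 from the latter. The difference of Cxcl12 between Q-SEC and Q-HSC, -0.73 and not called, was -3.06 to 0.066 with 1 library left out, the lowest without Q-SEC.1 and the highest, of the other sign, without Q-HSC.1. In CCl4 liver its difference was 1.14 (adjusted p = 0.37), with every F-SEC library above every F-HSC library. That difference was called in libraries 2 and 3 (adjusted p = 0.020) and in the 6 libraries compared (adjusted p = 0.018). Over all genes the count for the difference of changes was 116, and 911 with DESeq2, 1712 in libraries 2 and 3, 27 with limma-voom, 183 with the block and 3 (without Q-SEC.3) to 743 (without F-HSC.1) with 1 library left out. With 1 library of the groups compared left out the count over all genes was 1710 to 3178 for F-SEC against Q-SEC (3455 with all), 2612 to 4365 for F-HSC against Q-HSC (4680), 3031 to 4161 for Q-SEC against Q-HSC (4317) and 2445 to 3285 for F-SEC against F-HSC (3671). The depth limited the untested genes, where 3 reads corresponded to 0.228 to 0.335 CPM.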
